A study of Rattus norvegicus with 12 samples.

Results

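The endogenous opioid system was followed through 7 genes: the peptide precursors Pdyn, Penk and Pnoc, and the receptors Oprm1, Oprd1, Oprk1 and Oprl1. They were found by gene name among the 26214 names on a rat oligonucleotide array, and were covered by 13 probes of 30367. The genes were chosen partly on 1 reading of these same data, in which Pdyn stood lower in the animals with both exposures. Its values in both comparisons that include those animals are therefore given as a description, without a test. The samples were prefrontal cortex from female Sprague-Dawley rats, taken on postnatal day 15 (a label field gives another age). In the group called betamethasone with ketamine, dams were injected with betamethasone 2 times on gestational day 15, at 0.4 mg/kg each time, and the pups were given ketamine at 35 mg/kg on postnatal day 14. In the betamethasone group, the same prenatal exposure was followed by saline on postnatal day 14. In the control group, dams and pups were both given saline. Each group held 4 animals. All came from litters reduced to 4 females, and the labels do not say which animals shared a litter. Infantile spasms are named in the protocol for postnatal day 14, without saying which groups showed them. No group had ketamine without betamethasone.

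Opioid peptides are cut from larger precursors. Pdyn gives dynorphins, which act mainly through the kappa receptor (Oprk1), Penk gives enkephalins, which act on the delta (Oprd1) and mu (Oprm1) receptors, and Pnoc gives nociceptin, the ligand of the Oprl1 receptor. All 4 receptors couple to inhibitory G proteins, which lower cyclic AMP, open inwardly rectifying potassium channels and close presynaptic calcium channels. In the cortex the precursors are made largely by subsets of neurons, Pnoc and Penk in part by inhibitory interneurons, and Pdyn transcription is known from other brain regions to follow CREB and the repressor Kcnip3.

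The probes were 60-mers placed by the array's annotation on the rn4 build. No annotation of exons or untranslated regions on that build was used here. The first 30 bases are shown for the probe of each precursor, on which the results for Pdyn and Penk turn, for the delta receptor probe, and for the 4 probes of Oprl1, which lie in 1 gene and of which 1 was well above background in every sample. No base is marked, so all are in lower case.
Pdyn A_44_P476915, minus strand: aatcacatttatccaaattacttggaacat
Penk A_42_P749184, minus strand: aaagttactctaaagaagttcccgagatgg
Pnoc A_43_P11654, minus strand: ggagctgttctttttgactgattgtttgaa
Oprd1 A_64_P020053, minus strand: agatctgcgtgttcctcttcgccttcgtgg
Oprl1 A_44_P330435, plus strand: caggcagtgccctgaaaagcctctgagaga
Oprl1 A_43_P12591, plus strand: gactgtcattgctatcgactactacaacat
Oprl1 A_64_P125150, plus strand: attgccaaggatgttggccttggttgcaag
Oprl1 A_44_P408520, plus strand: tgccaaattggaggttggtatgagagctga
The Pdyn probe lies at chr3:117291061-117291120, the Penk probe at chr5:17509637-17509696, the Pnoc probe at chr15:44822650-44822709 and the Oprd1 probe at chr5:150979864-150979923. The Oprl1 probes start at chr3:170872073-170872132, and the others follow 522, 1285 and 2502 bases downstream, the last at chr3:170874575-170874634. Penk and the last Oprl1 probe were each printed as 10 spots on every array, and the other member probes as 1 spot.

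Each of 6 arrays carried 2 animals of the same group, 1 in the Cy3 and 1 in the Cy5 channel, so the samples named 1 and 2 shared an array, as did those named 3 and 4. The 2 control arrays were alone on their slide and the other 4 arrays shared another, so in both comparisons with control the effects of slide and of exposure cannot be told apart. Between 71.4% and 81.5% of the spots were well above background in a sample, and none was saturated. The array that carried ketamine samples 1 and 2 had 4.69% of its spots in areas where many readings were far (over 1 log2 unit) from those of the same spots elsewhere, and the median departure within those areas was −0.667. Areas of this kind held 0% to 0.368% of the spots on the remaining arrays. Snap25, a synaptic protein gene of neurons, was well above background in 12 of 12 samples, and Slc17a7, the vesicular glutamate transporter of cortical excitatory neurons, in 11. All values below are log2 intensities after normalization. The level of 1 probe cannot be set against that of another.

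Pdyn, the dynorphin precursor, was lowest in 2 of the 4 animals with both exposures and lay in the other 2 within the range of the animals with betamethasone alone. Betamethasone with ketamine samples 1 to 4 read 8.90, 8.94, 9.75 and 9.74. Betamethasone samples read 9.74, 9.75, 9.78 and 9.68, and control samples 10.45, 10.33, 10.03 and 9.998. The order of the group means was control, betamethasone, betamethasone with ketamine. Every sample of both exposed groups was below every control sample, while the exposed groups overlapped each other.

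The log2 change of Pdyn in betamethasone with ketamine minus control was −0.87, or 0.547-fold. Against betamethasone alone the change was −0.41. Pdyn was among the 3.66% of all tested probes whose betamethasone with ketamine samples were all below the controls, which its choice had used. In betamethasone minus control, a comparison that shares those controls, the change was −0.46 (0.725-fold, 95% interval −0.93 to 0.0010, SE 0.21), and limma's adjusted p was 0.436 (n = 4 each). The groups did not overlap there, as for 7.16% of all tested probes in that direction. Means were 9.33 ± 0.48 in betamethasone with ketamine, 9.74 ± 0.04 in betamethasone and 10.20 ± 0.22 in control (SD, n = 4 each). In bulk tissue, fewer cells that make a transcript and less transcript per cell cannot be told apart.

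The spread of Pdyn in the ketamine group lay between its arrays. Both animals on 1 array differed by 0.01 to 0.11 for Pdyn on all 6 arrays, whereas the 2 ketamine arrays differed by 0.83. The arrays of a group differed by 0.01 in betamethasone and, by their means of 10.39 and 10.01, more widely in control. Within the slide of the exposed animals, array means were 8.92 and 9.74 for betamethasone with ketamine, against 9.74 and 9.73 for betamethasone. Pdyn has a single spot, so no second reading exists on any array.

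The Pdyn spot lay among dim neighbours on the array of ketamine samples 1 and 2. It departed by −0.87 from the same spot on the other arrays. The neighbouring spots, in a square 15 spots wide, had a median departure of −0.43 there, and 15.9% of them departed by more than 1 log2 unit. On the remaining 5 arrays the neighbours were between −0.02 and 0.05, as the plot of the Pdyn spot and its surroundings shows. With the neighbours' median subtracted, ketamine samples read 9.32, 9.37, 9.72 and 9.71, and the change against control was −0.68 (an alternative chosen after the data were seen). Without the array of ketamine samples 1 and 2 it was −0.46, and the change against betamethasone was 0.0060. Without the other ketamine array these values were −1.28 and −0.82. The part of the dim area in the Pdyn values was not tested further.

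**Figure D1:**
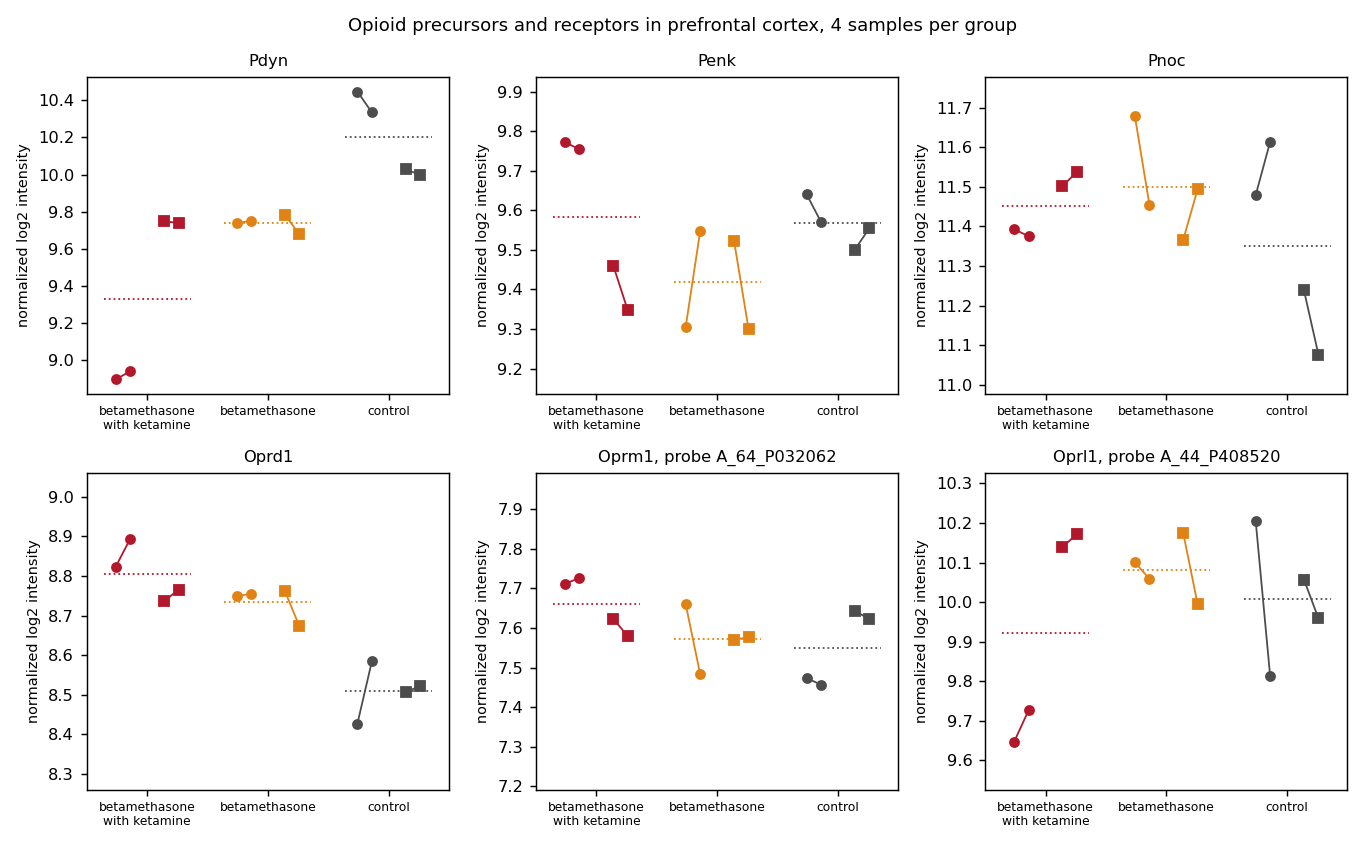
Normalized log2 intensity of 6 opioid genes in each sample. Points are samples, a line joins both samples of an array (circles for samples 1 and 2, squares for 3 and 4), and the dotted line is the group mean of 4. For Pdyn, ketamine samples 1 and 2 sit at 8.90 and 8.94 and samples 3 and 4 at 9.75 and 9.74, level with betamethasone, while for Oprd1 the control samples sit lowest.

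**Figure D2:**
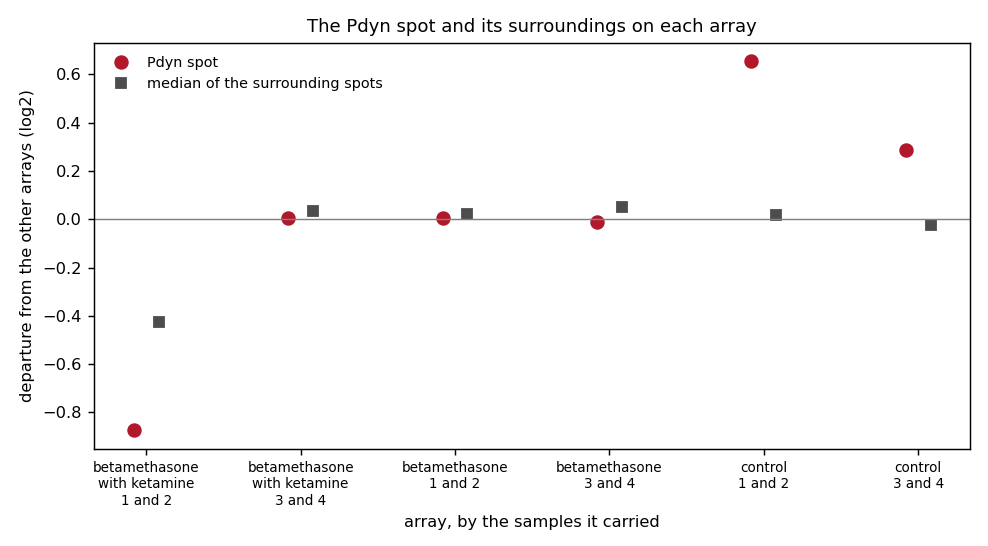
Departure of the Pdyn spot from the same spot on the other arrays (circles) and median departure of its neighbouring spots (squares), in log2 units, for each array. The neighbours depart by −0.43 on the array of ketamine samples 1 and 2 and by −0.02 to 0.05 on the others.

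Penk, the enkephalin precursor, did not separate the groups. Betamethasone with ketamine samples read 9.77, 9.75, 9.46 and 9.35, betamethasone samples 9.31, 9.55, 9.52 and 9.30, and control samples 9.64, 9.57, 9.50 and 9.55. The ranges of all groups overlapped. The changes were 0.02 in betamethasone with ketamine minus control, 0.16 against betamethasone and −0.15 in betamethasone minus control (SE 0.15 each), with limma adjusted p of 0.967, 0.909 and 0.763. On the array of ketamine samples 1 and 2, where Pdyn was low, 8 of the 9 Penk spots with a value there were above the same spots on the other arrays, with a median departure of 0.31. The neighbours of these 9 spots departed there by medians from −0.16 to 0.19. Penk spots at 0.54, 0.50, 0.48 and 0.45 had neighbours at 0.12, 0.17, 0.15 and 0.19. The part of the surroundings in the Penk values was not tested. The Penk spots lay close together there, with an SD over spots of 0.08 and 0.05 in the 2 samples, against 0.16 to 0.29 in the other 10. Without that array the change against control was −0.16.

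Pnoc, the nociceptin precursor, also overlapped between all groups. It read 11.39, 11.38, 11.501 and 11.54 in betamethasone with ketamine, 11.68, 11.46, 11.37 and 11.49 in betamethasone, and 11.48, 11.61, 11.24 and 11.08 in control. The 2 control arrays lay 0.39 apart, wider than any difference between group means. The change in betamethasone with ketamine minus control was 0.10 (SE 0.15, limma adjusted p = 0.768). In betamethasone minus control it was 0.15 (adjusted p = 0.773), and between the exposed groups −0.05 (adjusted p = 0.977). A change beyond −0.23 or 0.43 against control in animals with both exposures lay outside the 95% interval.

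Oprd1, the delta receptor, was the only tested receptor probe whose exposed and control groups separated. It read 8.82, 8.89, 8.74 and 8.77 in betamethasone with ketamine, 8.75, 8.76, 8.76 and 8.67 in betamethasone, and 8.43, 8.58, 8.51 and 8.52 in control. All 8 exposed samples were above all 4 controls, and the exposed groups overlapped. In betamethasone with ketamine minus control the change was 0.30 (1.23-fold, SE 0.09, limma adjusted p = 0.243). In betamethasone minus control it was 0.22 (1.17-fold, SE 0.09, adjusted p = 0.369). Neither passed over all probes, and both share the controls and their slide. With each channel scaled to its 75th percentile, Oprd1 in betamethasone minus control was −0.10 (SE 0.38, limma adjusted p = 0.960). The median of all probes was then −0.22, so Oprd1 stayed above the median probe, but by less than its SE. Such a separation upward was found for 11.9% and 10.4% of all tested probes in these comparisons. Between the exposed groups, which shared a slide, the change was 0.07 (95% interval −0.12 to 0.26, adjusted p = 0.921). On the array of ketamine samples 1 and 2, the neighbours of the Oprd1 spot departed by −0.10 and none of them by more than 1 log2 unit. On the control arrays they departed by 0.03 and −0.10. With the neighbours' median subtracted, control sample 4 read 8.63 and betamethasone sample 4 8.66, a narrower gap between these groups. Leaving out the array of ketamine samples 3 and 4 brought Oprd1 past the threshold against control (change 0.35, adjusted p = 0.0239), with the array of samples 1 and 2 then the only one of its group. In that setting 3486 of 21519 probes passed, against 17 of 21530 with all arrays, so the call was gained along with many others.

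Oprm1, the mu receptor, had 3 probes, described on the array by different transcript variants and spread over 19767 bases of the plus strand of chromosome 1. The probe for variant MOR-1B2 (chr1:37577390-37577449) was well above background in 9 of 12 samples. It read 7.71, 7.73, 7.62 and 7.58 in betamethasone with ketamine, 7.66, 7.48, 7.57 and 7.58 in betamethasone, and 7.47, 7.46, 7.64 and 7.62 in control. All groups overlapped, and the changes were 0.11, 0.09 and 0.02 (SE 0.09 each) in betamethasone with ketamine minus control, against betamethasone, and in betamethasone minus control, with limma adjusted p of 0.587, 0.917 and 0.954. The probe for MOR-1A was well above background in 0 of 12 samples and read 7.31 to 7.37 in betamethasone with ketamine, 7.38 to 7.46 in betamethasone and 7.39 to 7.41 in control. The ketamine group there lay below both others, though only by 7.37 against 7.38 at the nearest, at a level not well above background. A downward separation from control was found for 3.66% of all tested probes. The probe for variant 1 was well above background in 1 of 11 samples with a value. Neither was tested, since a probe had to be well above background in at least 3 of the 4 samples of a group.

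Oprk1, the kappa receptor and main target of dynorphins, was not measurable at this sensitivity. Its probe at chr5:14038275-14038334 was well above background in 2 of 12 samples, both in the ketamine group, and its other probe in 0. The readings ran over all samples from 7.20 to 7.49 and from 7.14 to 7.29. No statement on this receptor can be made from these arrays.

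Oprl1, the nociceptin receptor, had 4 probes, of which 3 were tested and 1 was well above background in all 12 samples. That probe, the farthest downstream, read 9.65, 9.73, 10.14 and 10.17 in betamethasone with ketamine, 10.10, 10.06, 10.18 and 9.99 in betamethasone, and 10.21, 9.81, 10.06 and 9.96 in control. The low ketamine values were those of samples 1 and 2, and the groups overlapped. The change was −0.09 in betamethasone with ketamine minus control, −0.16 against betamethasone and 0.07 in betamethasone minus control (SE 0.16 each), with limma adjusted p of 0.820, 0.915 and 0.919.

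The 10 spots of this Oprl1 probe were uneven in samples 1 and 2. On their array 3 spots departed by −2.78, −1.32 and −0.95, and the first of them lay in the dim area, where 44.5% of its neighbours departed. The neighbours of the other 2 spots departed by −0.09 and −0.08 at the median. The SD over spots was 0.84 and 0.78 in these samples, against 0.11 to 0.35 in the other 10. The medians over spots, 10.08 in both, lay among those of the other samples (9.81 to 10.23). With the median over spots in place of the mean, the change in betamethasone with ketamine minus control was 0.15 rather than −0.09. Limma's adjusted p was 0.614 and 0.820.

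**Figure D3:**
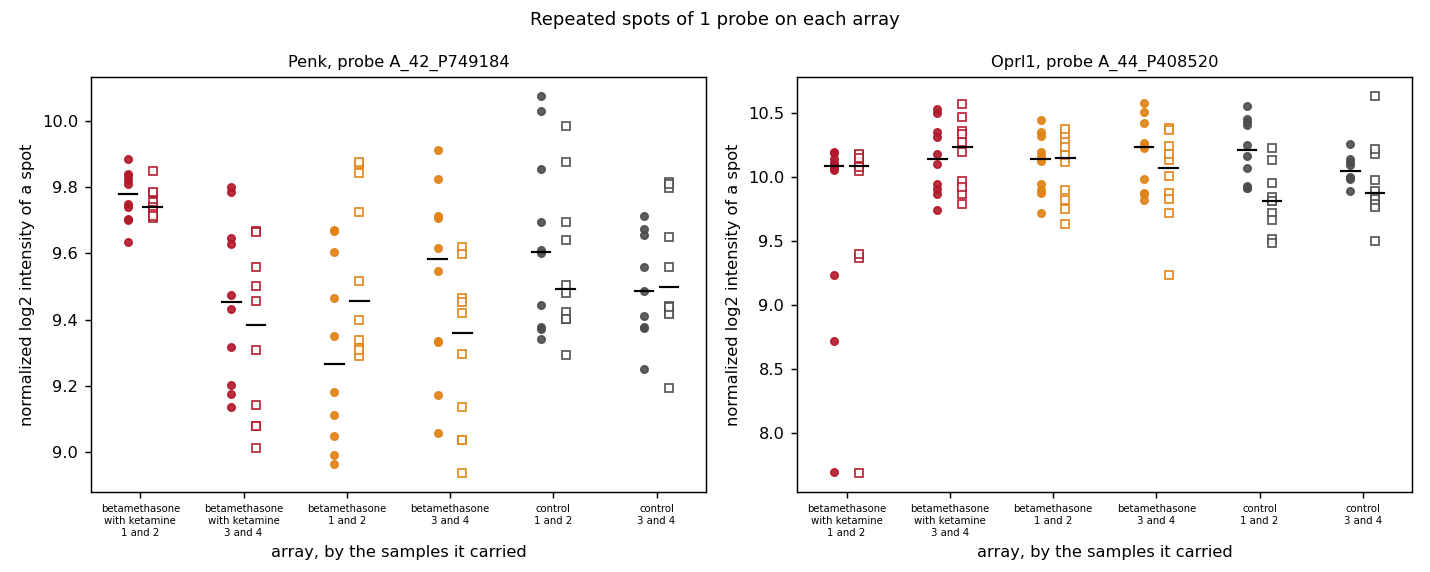
Normalized log2 intensity of each spot of the Penk probe (left) and the downstream Oprl1 probe (right), up to 10 spots per array. Filled circles are the Cy3 sample, open squares the Cy5 sample, and bars the median. On the array of ketamine samples 1 and 2 the Penk spots lie close together, with an SD of 0.08 and 0.05, and the Oprl1 spots reach down to 7.70 and 7.69.

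The other Oprl1 probes were close to background. The probe 1285 bases from the first was well above background in 11 samples and had changes of 0.10, 0.08 and 0.02 in betamethasone with ketamine minus control, against betamethasone, and in betamethasone minus control (SE 0.15 each, limma adjusted p from 0.767 to 0.978). The probe at 522 bases was well above background in 4 samples, 3 of them in the ketamine group, and in no control. It met the filter through the ketamine group alone, so its comparisons with that group serve as a description. Its changes were 0.04, −0.07 and 0.12 (SE 0.11 each, limma adjusted p from 0.736 to 0.931). The first probe was well above background in 1 sample and was not tested. It read 7.25 to 7.40 in betamethasone with ketamine, 7.35 to 7.52 in betamethasone and 7.25 to 7.26 in control, so that betamethasone and control did not overlap at this near-background level. An upward separation of these groups was found for 10.4% of all tested probes.

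Across the genes, no opioid probe passed an adjusted p of 0.05 in limma. Of the probes with a test, 0 of 7 passed in betamethasone with ketamine minus control, where 0.079% of all 21530 tested probes passed, 0 of 7 in betamethasone with ketamine minus betamethasone (0%), and 0 of 8 in betamethasone minus control (0.214%). An unadjusted p under 0.05 was reached by 1, 0 and 1 of them, Oprd1 each time, where 13.9%, 3.16% and 11.4% of all tested probes reached it. These counts include the Oprl1 probe A_43_P12591, which met the filter through the ketamine group alone. The members' shares were thus near those of the array as a whole. The plot of the changes shows that all tested 95% intervals spanned 0 except those of Oprd1 against control.

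**Figure D4:**
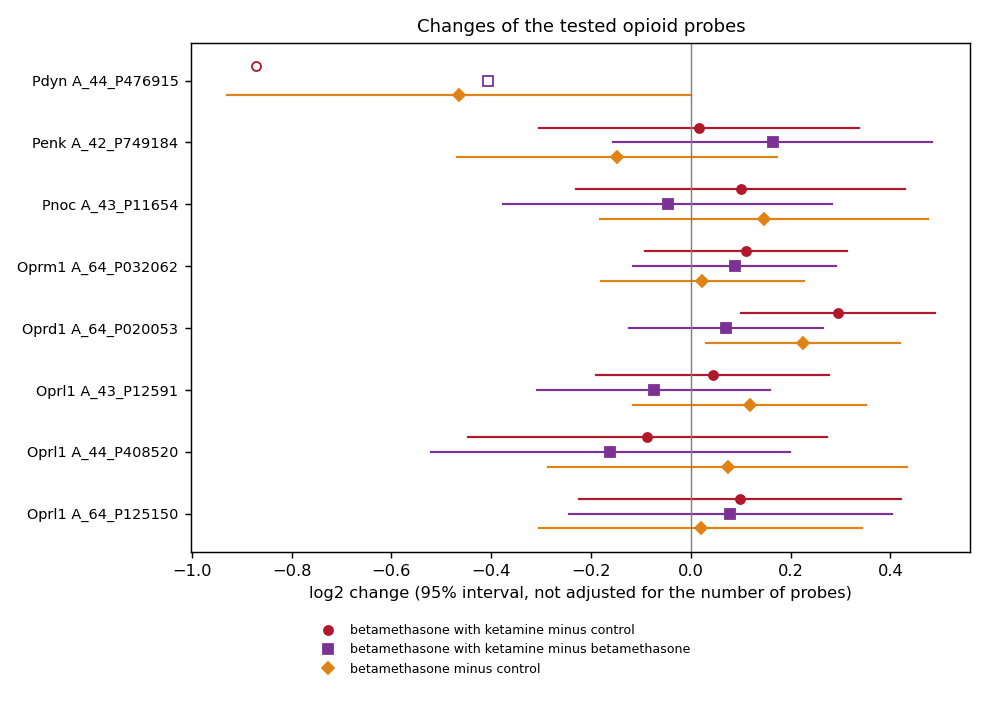
Log2 change of the 8 tested opioid probes in each comparison, with 95% intervals from limma. Open symbols for Pdyn have no interval because those comparisons were used in its choice. For Oprd1 the intervals against control run from 0.10 to 0.49 in betamethasone with ketamine and from 0.03 to 0.42 in betamethasone, neither adjusted for the number of probes; with 75th percentile scaling the betamethasone value was −0.10 and the median of all probes −0.22.

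Among the probes whose pattern over the 12 samples was most like that of Pdyn were those of Sf1 (Pearson r = 0.988) and Nadk (0.977). Over the 10 samples without the array of ketamine samples 1 and 2, r was 0.969 and 0.950. Both spots also had dim neighbours on that array, with median departures of −0.34 and −0.68. The nearest to Oprd1 were Sbk1 (0.973), Try10 (0.961) and Nmrk1 (0.957), with 0.965, 0.949 and 0.966 over the 10 samples. The nearest to Penk were Mospd1 (0.948), Cul5 (0.913) and Plekho2 (0.898), with lower values of 0.908, 0.813 and 0.773 over the 10 samples. For Pnoc they were Rasal3 (0.960), Tmem243 (0.949) and Ripk3 (0.939), with 0.968, 0.948 and 0.944 over the 10. For Oprm1 they were Mfsd9 (0.957), Arrdc2 (0.936) and Lamb2 (0.913), with 0.929, 0.906 and 0.848. For the downstream Oprl1 probe they were Hsp90b1 (0.955), Eif2b5 (0.932) and C2cd2l (0.931), with lower values of 0.886, 0.809 and 0.870. Their spots departed by −0.74, −0.66 and −0.67 on the array of ketamine samples 1 and 2. The neighbours of those spots departed there by −0.03, −0.26 and −0.24 at the median. The correlations named are among the highest over all tested probes, in samples that share arrays, and serve as a description.

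The genes around these peptides and receptors were read as 6 lists, with 71 of 74 listed genes tested at their brightest probe. None passed in any comparison in limma. An unadjusted p under 0.05 was reached by 15 of 71 in betamethasone with ketamine minus control, 3 of 71 against betamethasone and 11 of 71 in betamethasone minus control, where 13.9%, 3.16% and 11.4% of all tested probes reached it. No difference of the lists from the array was tested. Median changes of the whole array were 0.07, 0.05 and 0.03. Of all tested probes, 36.0%, 36.8% and 43.7% read lower in these comparisons, so most of the array read higher in each. The counts of genes that read higher, given below, are to be read beside these shares.

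Among transcription factors that act on precursor genes, 8 of 11 read higher and 3 lower in betamethasone with ketamine minus control (median 0.25), and likewise 8 and 3 in betamethasone minus control (median 0.33). The AP-1 subunit gene Jun had the smallest p in both, at 0.70 (SE 0.16, adjusted p = 0.167) and 0.43 (SE 0.16, adjusted p = 0.343). Between the exposed groups the mineralocorticoid receptor gene Nr3c2 was first, at 0.31 (SE 0.15, adjusted p = 0.909).

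Among G proteins and effectors, 10 of 20 read higher in betamethasone with ketamine minus control (median 0.01) and 8 of 20 in betamethasone minus control (median −0.11). Kcnj6, which encodes a G-protein-gated potassium channel subunit, was at −0.72 (SE 0.22, limma adjusted p = 0.244) with both exposures. It was at −0.62 (SE 0.22, adjusted p = 0.314) with betamethasone alone and at −0.10 between the exposed groups. The presynaptic calcium channel gene Cacna1b was at −0.32 (SE 0.11, adjusted p = 0.307) with betamethasone alone. Against betamethasone, 13 of 20 read higher (median 0.11), with the channel subunit gene Kcnj3 at 0.40 (SE 0.17, adjusted p = 0.909).

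Receptor desensitisation and trafficking genes read higher for 10 of 16 in betamethasone with ketamine minus control (median 0.11), 12 of 16 against betamethasone (0.07) and 7 of 16 in betamethasone minus control (−0.06). Rgs14, a regulator of G-protein signalling, had the smallest p in both comparisons with control, at −0.47 and −0.42 (SE 0.13 each, adjusted p = 0.220 and 0.244). The receptor kinase gene Grk5 was at 0.32 against betamethasone (SE 0.14, adjusted p = 0.909).

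The enzymes and granule proteins of neuropeptide processing read higher for 9 of 12 genes with both exposures against control (median 0.21). The count was 8 of 12 against betamethasone (0.17) and 7 of 12 in betamethasone minus control (0.09). The prohormone convertase gene Pcsk1, which cuts opioid precursors, was at 0.36 (SE 0.14, adjusted p = 0.325) in the first. Scg2, a granule protein gene, was at 0.20 (SE 0.10, adjusted p = 0.909) and −0.28 (SE 0.11, adjusted p = 0.364) in the other two.

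Peptide-degrading enzyme genes read higher for 7 of 10 with both exposures, against control (median 0.08) and against betamethasone (0.10), and for 5 of 10 in betamethasone minus control (−0.02). Their smallest p values belonged to Thop1 at 0.30, Lnpep at 0.41 and Prep at −0.33, with adjusted p of 0.340, 0.909 and 0.253. Pomc, the precursor of beta-endorphin, was at 0.32 in betamethasone with ketamine minus control and 0.32 in betamethasone minus control (SE 0.15 each, adjusted p = 0.376 and 0.443). Ogfrl1, related to the opioid growth factor receptor, was at 0.34 between the exposed groups (SE 0.21, adjusted p = 0.909).

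Because Pdyn and Penk are abundant in the striatum, 13 markers of striatal projection neurons were summed on the linear scale. The sum ranged from 29433 to 33969 in betamethasone with ketamine, from 30716 to 33087 in betamethasone and from 29692 to 34703 in control, with 9 to 11 markers well above background in each sample of the exposed groups and 9 to 10 in control. Isl1 was well above background in 0 of 12 samples, Gpr6 in 2, Rarb in 3 and Drd1 in 5, while Drd2, Adora2a and Ppp1r1b were so in 12. The ranges of the summed intensity overlapped between groups. Most of the sum came from Foxp1 (group means 13.84, 13.82 and 13.96) and Tac1 (12.98, 12.93 and 12.71). Tac1 is also among the interneuron markers. The sum therefore says little of the dimmer markers and cannot show whether the share of striatal tissue differed.

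Markers of oligodendrocytes ran in the direction of Pdyn in the comparisons with control, but not between the exposed groups, where 6 of 9 read higher with ketamine (median 0.034). Of 9 tested, 8 read lower in betamethasone with ketamine minus control (median −0.47) and 9 in betamethasone minus control (median −0.50), none past the threshold. Their summed intensity was 33243 to 71312, 22594 to 52990 and 41368 to 87632 in betamethasone with ketamine, betamethasone and control. Pan-neuronal markers ran in the direction of Oprd1, with 8 of 9 higher (median 0.30) and 6 of 9 higher (median 0.13), and sums of 198988 to 222703, 167175 to 207048 and 174384 to 196079. Microglial markers did so too, with 8 of 9 higher (median 0.27) and 6 of 9 higher (median 0.10), and sums of 31373 to 33202, 28735 to 31018 and 25568 to 29878. Astrocyte (6 of 8 higher, median 0.21), endothelial (5 of 7, 0.19) and upper layer markers (5 of 7, 0.15) did so with both exposures. With betamethasone alone their counts were 4 of 8 (0.10), 5 of 7 (0.13) and 5 of 7 (0.06). The counts were 4 of 8 and 5 of 8 for claustrum and deep layer markers. They were 2 of 7 and 3 of 7 for choroid plexus and meningeal markers. Of all tested probes, 36.0% and 43.7% read lower. The part of these lists in the opioid values was not tested. Interneuron markers had 13 of 18 higher with both exposures (median 0.12) and 11 of 18 with betamethasone (median 0.09), and their sums overlapped at 236655 to 306805, 254533 to 292653 and 226851 to 294431.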

How the data were processed

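Scanner files of 12 samples on 6 2-colour Agilent arrays were used. Per the file headers they hold spot intensities from Agilent Feature Extraction 11.5.1.1 (control arrays) and 11.0.1.1 (the others), while the submitters' processing notes name 10.7.3.1. The deposited matrix of values holds linear ratios to each column's median, with the authors' steps not given in the sources used here, and was an alternative. Its columns for control samples 1 and 2 matched the scanner values of control samples 3 and 4, and the reverse.

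Mean signals were corrected by normexp (offset 50, median local background), normalized by loess within and Aquantile between arrays, and taken as log2 values per channel. Control spots had no weight, outlier spots were left out, and spots of a probe were averaged. A probe was tested (21530 of 30367) where some group had 3 or more of its 4 samples well above background and each group had 3 or more values. Limma 3.58.1 in R 4.3.3 (statmod 1.5.0, and version 1.17.8 of the data.table package) was fitted to all 12 samples, with dye as a term and array as a random block (correlation 0.555), with Benjamini-Hochberg adjustment over all tested probes. The labels call the samples biological replicates, and the number of arrays limits the precision. The scripts were tested on simulated data.

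All 7 genes were named with every probe. For likeness, the 3 genes with the highest correlation to each member's brightest kept probe were named, except 1 that is not reported here, and for each pathway list the gene with the smallest p. The members and lists were chosen with earlier results of these data known. Alternatives covered background correction, scaling, filters, spot summaries, blocks and leaving out samples or arrays.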

Additional observations from a re-analysis of the deposited data

Results flagged for a closer look

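Among 38 groups of 4 samples, 4 had a lowest sample set apart from the rest by more than Dixon's test allows at the 95% level. Chance flags about 1 in 20 groups. For Oprd1 in betamethasone, sample 4 read 8.67 and the next 8.75 (ratio of gap to range 0.852). For the upstream Oprl1 probe A_43_P12591 in betamethasone with ketamine, sample 4 read 7.38 and the next 7.44 (ratio 0.865). For Oprl1 probe A_64_P125150 in the same group, sample 4 read 7.77 and the next 7.88 (ratio 0.988). For the Oprk1 probe A_43_P15269, which was not tested, sample 3 of that group read 7.28 and the next 7.45 (ratio 0.939).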

How the results depend on the processing

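Under alternatives that keep all samples, 29 results for single opioid probes reversed, 4 came to pass the threshold in the same direction and 1 moved. The other 413 kept their direction and side of the threshold. For Pdyn in the comparisons without a test, a shift under its largest group SD counted as kept, whatever the sign. Pdyn against betamethasone kept its direction in 36 of 38 alternatives, those leaving out samples or arrays included. Leaving out wider areas dropped the Pdyn spot on the array of ketamine samples 1 and 2. The cause of the exceptions was not tested unless named. The deposited value table called 4 opioid genes in betamethasone with ketamine minus control and 5 in betamethasone minus control, but its column scaling put the median of all probes at −1.03 and −1.11. It gave −2.29 (Pdyn), −1.13 (Penk), −1.03 (Pnoc), −0.73 (Oprd1) and −1.29 (Oprl1 A_44_P408520) in the first, and −1.73, −1.36, −0.98, −0.88 and −1.06 in the second. Re-centred on the 24472 spots with a value in every column (an added setting), it called 0 opioid genes, and all 15 results kept their direction. Without the array block, 1 gene passed in betamethasone with ketamine minus control (Oprd1, adjusted p = 0.0274), as did 862 of 21530 probes.

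With loess and array medians, betamethasone with ketamine minus control was −0.11 for Penk, −0.071 for Pnoc and −0.0070 for Oprl1 A_43_P12591. Against betamethasone, Penk was −0.076 and that Oprl1 probe 0.58. In betamethasone minus control, Oprm1 was −0.58, Oprl1 A_43_P12591 −0.59 and A_64_P125150 −0.44. With 75th percentile scaling, which put the median of all probes at 0.17, 0.35 and −0.22 in the 3 comparisons, Oprl1 A_44_P408520 was 0.049 and 0.041 with ketamine against control and betamethasone, and A_43_P12591 1.00 against betamethasone. In betamethasone minus control, it gave −0.85 (Oprm1), −0.10 (Oprd1), −0.86 (A_43_P12591) and −0.71 (A_64_P125150). Processed signals gave 0.12 (Pnoc) and 0.092 (A_43_P12591) against betamethasone. Subtracting the surroundings gave −0.012 for Penk with ketamine against control, and −0.041 (Oprm1) and −0.012 (A_64_P125150) in betamethasone minus control. Oprl1 A_44_P408520 with ketamine against control was 0.023 without the departing areas, 0.023 without wider areas and 0.15 by the spot median.

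Leaving out samples or arrays gave, for betamethasone with ketamine minus control, against betamethasone, and betamethasone minus control: Pdyn −1.28 to −0.46, −0.82 to 0.0060 and −0.65 to −0.28. Penk gave −0.16 to 0.20, −0.015 to 0.34 and −0.22 to −0.080. Pnoc gave −0.094 to 0.29, −0.11 to 0.022 and −0.048 to 0.34. Oprm1 gave 0.027 to 0.20, 0.029 to 0.15 and −0.061 to 0.11. Oprd1 gave 0.24 to 0.35, 0.016 to 0.12 and 0.19 to 0.26. Oprl1 A_43_P12591 gave 0.028 to 0.064, −0.24 to 0.090 and −0.047 to 0.28. A_44_P408520 gave −0.32 to 0.15, −0.40 to 0.073 and −0.0016 to 0.15. A_64_P125150 gave −0.0095 to 0.21, 0.030 to 0.13 and −0.089 to 0.13. Opioid genes called were 0 to 1, the 1 being Oprd1 without the array of ketamine samples 3 and 4, where 3486 of 21519 probes passed.

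Counts over all probes, 17 in betamethasone with ketamine minus control, 0 against betamethasone and 46 in betamethasone minus control, ran from 0 to 157, 0 to 4 and 0 to 215 under the other planned or added settings, apart from the value table (15146, 2 and 15383) and no array block (862, 1 and 1033). Leaving out samples or arrays gave 3 to 3486, 0 to 2569 and 3 to 511. Deviations of same-numbered samples from their group means had correlations of −0.06 to 0.10. As samples of a group share arrays, this cannot exclude a pairing by number. A replicate block gave 0 opioid genes and 10, 0 and 4 probes. Dim probes limit what can be said of Oprk1 and most Oprm1 and Oprl1 probes.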
